A study of Mus musculus with 13 samples.

Results

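The Notch pathway was followed through 9 genes, the receptors Notch1, Notch2, Notch3 and Notch4, the ligands Jag1, Jag2 and Dll1, and the target genes Hes1 and Hey1. They were found by gene name among the non-control probes of the array, which gave 13 probes, and all 9 were among the 18274 genes tested. Organoids, here multicellular fragments of epithelium freed from tissue with collagenase and trypsin, came from mammary tumors of MMTV-PyMT mice or from glands of normal FVB mice. In MMTV-PyMT mice the viral MMTV promoter drives the polyoma middle T oncogene in mammary epithelium, and the largest tumor of each mouse was taken at 12 to 16 weeks of age. No age was given for the normal mice. The fragments were grown in 3 mg/ml collagen I from rat tail, a fibrillar matrix of connective tissue, or in Matrigel, a basement membrane gel. All groups were grown for 4 days and had 2.5 nM FGF2.

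Each of 4 groups had 3 arrays of separate mice: tumor organoids in collagen I (mice A, B and C), tumor organoids in Matrigel (A, B and C), normal organoids in collagen I (A, B and C) and normal organoids in Matrigel (A, B and D). A shared letter within a tissue is the same mouse, and the tumor and normal mice are different animals. A level is the log2 signal of a gene's brightest probe minus that of the 75th percentile of its array, and a change is a difference of such levels, with limma's standard error after ±. Levels of different probes have no common scale and are not compared. The signal at the 75th percentile was 691 to 812 in tumor collagen I, 383 to 570 in tumor Matrigel, 971 to 1216 in normal collagen I and 671 to 1098 in normal Matrigel, so the tumor Matrigel arrays were the dimmest. The representing probes of all 9 genes were well above background on all 12 arrays.

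Notch receptors are membrane proteins that bind Delta and Jagged ligands on a neighbouring cell. Binding lets ADAM proteases and the gamma-secretase complex cut the receptor, and its inner part moves to the nucleus, joins RBPJ and Mastermind-like proteins and switches on genes such as those of the Hes and Hey repressors. In the mammary gland the pathway is known for its part in the choice of luminal fate, and an activated Notch4 is a classical target of mouse mammary tumor virus insertion.

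The array reads each transcript through oligonucleotides of 60 bases, and the sequences of those that decide the readings are shown because probes of 1 gene did not all move alike. All are from the deposited files, 5′ to 3′, with positions in the build mm7 named in the file headers. The Hes1 oligo spans 296 genomic bases and so crosses an intron. The files do not annotate the part of a transcript that an oligo reads. The 3 oligos printed whole were taken as coding from knowledge of the proteins, and each holds a reading frame without a stop codon. Such a frame does not set them apart, since several of the other oligos hold one too.
Hes1, chr16:29738743-29739038, plus strand: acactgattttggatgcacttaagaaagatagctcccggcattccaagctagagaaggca
Jag1, dimmer probe, chr2:136824059-136824118, minus strand: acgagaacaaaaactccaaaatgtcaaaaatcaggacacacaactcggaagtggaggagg
Notch2, dimmest probe, chr3:98018506-98018565, plus strand: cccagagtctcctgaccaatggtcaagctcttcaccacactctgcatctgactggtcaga

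For the other oligos the first 30 bases are given. They belong to the brightest probes of Jag1 and Notch2, to the second Notch2 probe, and to the single probes of the genes whose change between tissues passed the test.
Jag1, brightest probe, chr2:136822550-136822609, minus strand: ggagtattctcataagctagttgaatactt
Notch2, brightest probe, chr3:98021215-98021274, plus strand: ccacttgaagtcttgcatagaaatgaacca
Notch2, second probe, chr3:98020144-98020203, plus strand: tctgtggtaatctaggatgatagttttctc
Notch4, chr17:32669395-32669454, plus strand: gttgatttcgagaatccctaaactctggaa
Jag2, chr12_random:2920858-2920917, minus strand: ttgtataaattattcaacggctgtcaggcg
Dll1, chr17:13604553-13604612, minus strand: gattactatgagccagtctttccttgaact
Hey1, chr3:8669867-8669926, minus strand: gatttgggctctaaaagtattgttttacag

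Among the receptors, Notch4 was lower in tumor than in normal organoids, and the differences of Notch1 and Notch3 did not pass the test in any comparison. The levels of Notch4, a receptor best known from blood vessel endothelium, were -1.0, -0.50 and -0.77 in tumor Matrigel, against 1.08, 1.05 and 1.35 in normal Matrigel. All 3 tumor arrays lay below all 3 normal arrays. The change in Matrigel was -1.92 ± 0.35 on the log2 scale (limma, adjusted p = 0.00138), which is 3.78-fold lower in tumor organoids. In collagen I the levels were -0.73, -0.49 and 0.55 in tumor organoids and -0.18, 0.79 and 0.75 in normal organoids. These groups overlapped, and the change was -0.68 ± 0.35 (limma, adjusted p = 0.274). Averaged over the gels, the Notch4 change was -1.30 ± 0.25 (limma, adjusted p = 0.00172).

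Between the gels no Notch4 change passed. Collagen I minus Matrigel gave 0.27, 0.01 and 1.31 in tumor mice (A, B and C), against -1.25 and -0.25 in normal mice (A and B). The group changes were 0.53 ± 0.35 in tumor organoids (limma, adjusted p = 0.277) and -0.71 ± 0.35 in normal organoids (limma, adjusted p = 0.605). Their difference of 1.24 ± 0.49 did not pass either (limma, adjusted p = 0.147). From low to high, the group means were -0.76 ± 0.25 in tumor Matrigel, -0.23 ± 0.68 in tumor collagen I, 0.45 ± 0.55 in normal collagen I and 1.16 ± 0.17 in normal Matrigel (SD, n = 3 each). Of neighbours in that order, tumor collagen I and normal collagen I overlapped, as did tumor collagen I and tumor Matrigel.

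Markers of several other cell types differed between the tissues as well. Of all genes, 25.9% were lower in tumor organoids in Matrigel and 5% in collagen I. Of 8 endothelial markers, 6 were lower in tumor organoids in Matrigel and 6 in collagen I, among them Cdh5, Pecam1, Kdr, Tie1, Emcn and Esam. The mean level of the 8 ranged from -5.05 to -4.55 in tumor collagen I, -4.38 to -3.52 in tumor Matrigel, -1.50 to -0.43 in normal collagen I and -0.74 to -0.41 in normal Matrigel. Tie1 was not well above background on any tumor array. Pecam1 and Cdh5 were so on 2 of 3 arrays in tumor Matrigel and 1 of 3 in tumor collagen I. Of 9 pericyte and fibroblast markers, 9 were lower in tumor organoids in Matrigel and 7 in collagen I, with mean levels of -3.27 to -2.82 in tumor Matrigel against -0.41 to 1.63 in normal Matrigel, and of -2.56 to -1.47 in tumor collagen I against -0.12 to 1.23 in normal collagen I. Of 7 leukocyte markers tested, 1 was higher and 1 lower in tumor organoids in Matrigel, and 2 were lower in collagen I. Of 2 adipocyte markers tested, 2 were lower in Matrigel and 1 in collagen I. Tie1, Pecam1, Cdh5, Tek, Rgs5, Des, Ptprc and Plin1 entered the test only through normal arrays. No tumor group had them well above background on all its arrays. The counts are thus partly set by that filter, and the tumor mean levels are not firm. The part of these cell types in the Notch4 result was not tested. In such bulk RNA, fewer cells of a type and less RNA per cell cannot be told apart.

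Keratins of the labelled epithelium were bright in all groups, with mean levels of the luminal Krt8 from 7.84 to 8.81 and of Krt18 from 8.01 to 9.23, and of the basal Krt14 from 6.17 to 7.89. Of 10 luminal markers, Krt8, Krt18 and Epcam were higher and 5 lower in tumor organoids in Matrigel, and 3 were lower in collagen I. Of all genes, 25.7% were higher and 25.9% lower in Matrigel, and 5% were lower in collagen I. The mean level of the luminal markers was 2.57 to 2.81 in tumor Matrigel against 3.34 to 3.59 in normal Matrigel. In collagen I it was 2.11 to 2.90 in tumor organoids against 3.28 to 3.61 in normal organoids. Pgr, the progesterone receptor, was not well above background on any tumor array. Of 8 basal markers, 1 was higher and 3 were lower in tumor organoids in each gel. Their mean level was 1.19 to 1.99 in tumor Matrigel against 2.95 to 3.93 in normal Matrigel. In collagen I it was 2.35 to 2.91 in tumor organoids against 3.58 to 3.67 in normal organoids. The median change of the 8 was only -0.38 in Matrigel and -0.19 in collagen I, so the means rest on a few large decreases. Among the contractile markers, Myh11 was at -4.52 in tumor Matrigel against 2.53 in normal Matrigel (limma, change -7.05, adjusted p = 7.58e-06). Cnn1 was at -0.88 in tumor Matrigel against 4.60 in normal Matrigel, while Acta2 stood at 4.27 in tumor Matrigel and 4.31 in normal Matrigel. Oxtr was not well above background on any tumor Matrigel array, so its value in that mean is not a firm level.

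Notch1 levels were spread more widely among tumor arrays than any change. They were 0.52, 1.22 and 0.11 in tumor collagen I, 1.44, 1.21 and 0.40 in tumor Matrigel, 1.23, 0.84 and 1.02 in normal collagen I, and 0.64, 0.77 and 0.77 in normal Matrigel. The tumor minus normal change was 0.29 in Matrigel (95% interval -0.40 to 0.98) and -0.41 in collagen I (-1.10 to 0.28).

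Notch3 passed in no comparison. Its levels were 2.25, 2.47 and 2.56 in tumor collagen I, against 2.98, 2.86 and 2.57 in tumor Matrigel. In normal organoids they were 2.39, 2.31 and 2.62 in collagen I, against 2.66, 2.75 and 2.70 in Matrigel. All 5 mice measured in both gels had the lower level in collagen I, but neither change passed the test, at -0.38 ± 0.17 in tumor organoids (limma, adjusted p = 0.117) and -0.26 ± 0.17 in normal organoids (limma, adjusted p = 0.733). Between the tissues the 95% intervals were -0.27 to 0.47 in Matrigel and -0.39 to 0.35 in collagen I.

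The reading of Notch2 depended on the probe. The brightest probe stood at 0.89, 0.66 and 0.92 in tumor Matrigel, against 0.71, 1.03 and 0.99 in normal Matrigel, a change of -0.09 ± 0.16. The second probe stood at -1.81, -1.91 and -1.69 in tumor Matrigel, against -2.99, -2.69 and -2.60 in normal Matrigel, with no overlap and a change of 0.95 ± 0.18 (limma over 26606 probes, adjusted p = 0.00176). The dimmest gave 0.74 ± 0.30 (adjusted p = 0.0566 in the same fit).

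In collagen I none of the Notch2 probes passed between the tissues, with changes of -0.24, 0.32 and 0.17 in the order brightest, second and dimmest. The brightest probe stood at 0.98, 1.16 and 1.13 in tumor collagen I, against 1.40, 1.23 and 1.36 in normal collagen I, with no overlap. Between the gels the brightest Notch2 probe was higher in collagen I in all 5 mice measured in both. In normal organoids that change of 0.42 ± 0.16 did not pass (limma, adjusted p = 0.44), and in tumor organoids it was 0.27 ± 0.16 (limma, adjusted p = 0.226) while the second probe gave -0.29 ± 0.18. Direction and size for Notch2 are therefore not given as those of the gene.

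**Figure D1:**
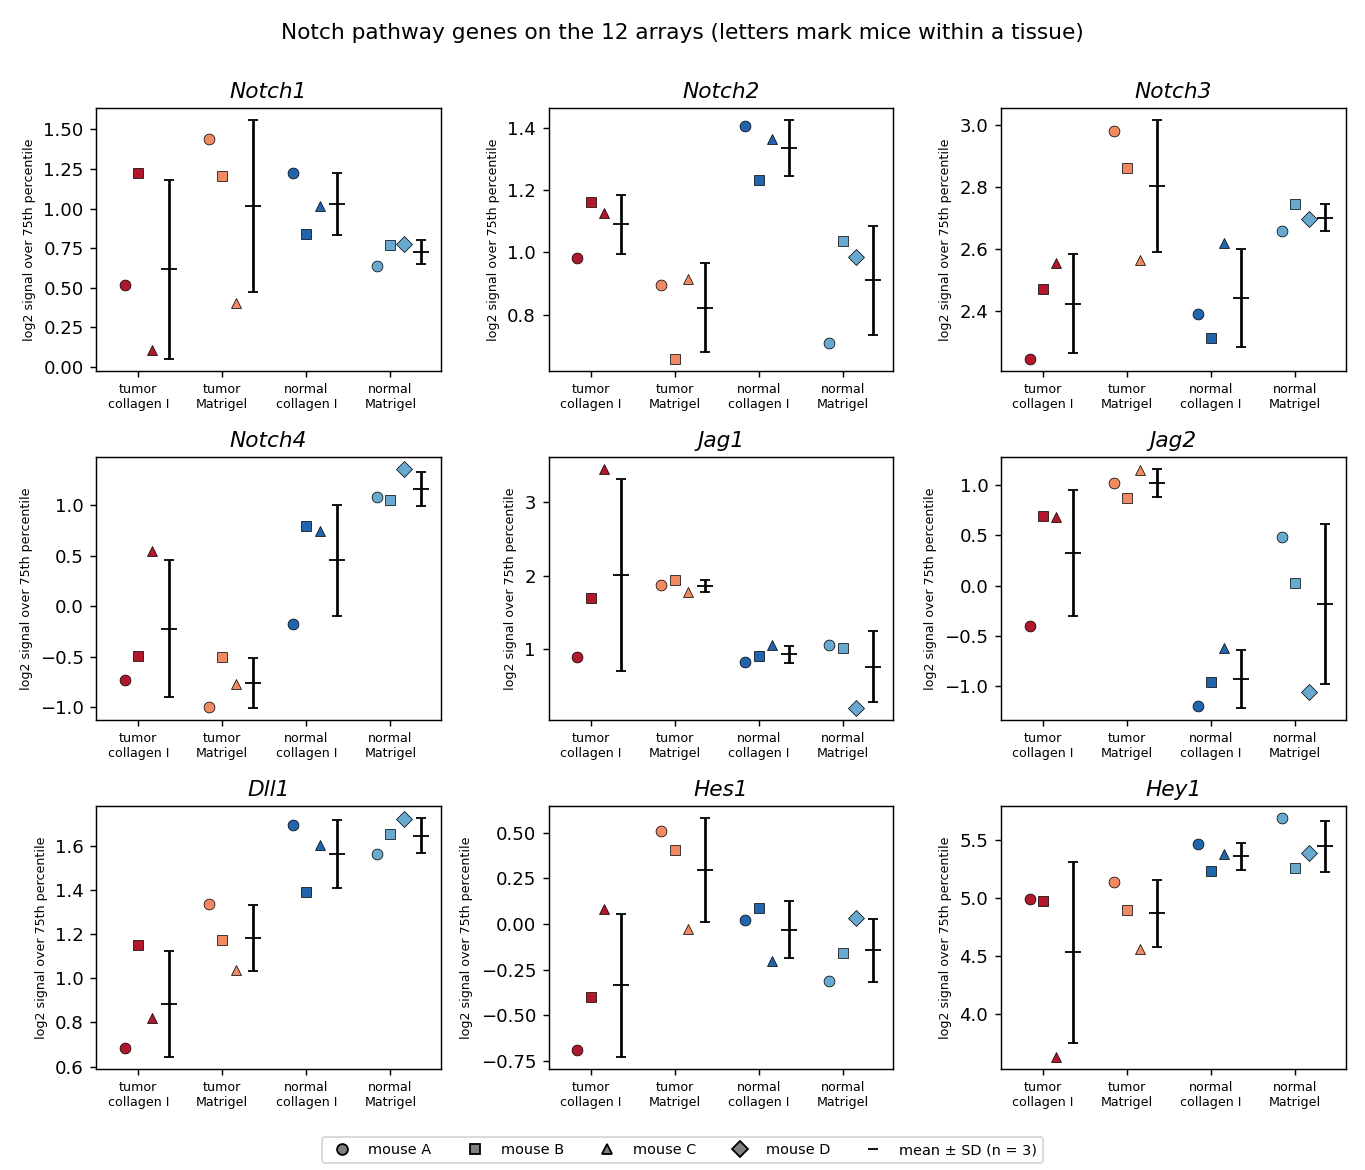
Level of each Notch pathway gene (log2 signal over the 75th percentile of its array, vertical axis, own range per panel) on each of 12 arrays, grouped on the horizontal axis; point shapes mark mice within a tissue and black bars the mean ± SD of 3 arrays. Notch4 and Dll1 lie lower and Jag2 higher in tumor than in normal Matrigel arrays with no overlap, and the Jag1 level of tumor collagen I mouse C, at 3.44, stands above the other tumor arrays.

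The ligands went in different directions between the tissues. Jag2 was higher in tumor organoids and Dll1 lower, and Jag1 was higher in the average over both gels. Jag2, a Jagged ligand, had levels of 1.02, 0.88 and 1.16 in tumor Matrigel, against 0.48, 0.03 and -1.07 in normal Matrigel. In collagen I its levels were -0.41, 0.69 and 0.69 in tumor organoids and -1.20, -0.96 and -0.63 in normal organoids. The tissues did not overlap in either gel. The change was 1.20 ± 0.40 in Matrigel (limma, adjusted p = 0.026), or 2.30-fold, and 1.25 ± 0.40 in collagen I (limma, adjusted p = 0.0808). Averaged over the gels it was 1.23 ± 0.28 (limma, adjusted p = 0.00456). Without the normal Matrigel array of mouse D the Matrigel change was 0.76 (limma, adjusted p = 0.102), and without tumor Matrigel array A, B or C the adjusted p of limma was 0.0579, 0.0517 or 0.0655.

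Jag2 was also lower in collagen I than in Matrigel in every mouse measured in both gels, by changes of -1.43, -0.18 and -0.47 in tumor mice A, B and C, against -1.68 and -0.98 in normal mice A and B. The group changes did not pass, at -0.69 ± 0.40 in tumor organoids (limma, adjusted p = 0.215) and -0.74 ± 0.40 in normal organoids (limma, adjusted p = 0.642). The 2 estimates differed by only 0.05, but the 95% interval of that difference was wide, -1.19 to 1.29. Its sign turned in 9 of 25 alternatives, which gave -0.73 to 0.64, so equal gel effects are not established.

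Dll1, a Delta ligand, had levels of 1.33, 1.17 and 1.04 in tumor Matrigel, against 1.56, 1.65 and 1.72 in normal Matrigel. In collagen I they were 0.68, 1.15 and 0.82 in tumor organoids and 1.69, 1.39 and 1.60 in normal organoids. All tumor arrays lay below all normal arrays in both gels. The change was -0.46 ± 0.17 in Matrigel (limma, adjusted p = 0.0428), or 1.38-fold lower, and -0.68 ± 0.17 in collagen I (limma, adjusted p = 0.0349), or 1.60-fold lower. Averaged over the gels it was -0.57 ± 0.12 (limma, adjusted p = 0.00322). Both calls within a gel were close to the threshold: leaving out any of 8 arrays put the Matrigel adjusted p above it (0.0556 to 0.122), and leaving out any of 6 the collagen I adjusted p (0.0599 to 0.131).

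Jag1, the other Jagged ligand, was 1.87, 1.94 and 1.78 in tumor Matrigel, against 1.06, 1.02 and 0.21 in normal Matrigel, with no overlap. In collagen I it was 0.90, 1.69 and 3.44 in tumor organoids and 0.83, 0.91 and 1.06 in normal organoids. The tumor arrays of mice A, B and C thus spanned 2.54 log2 units, and array A lay among the normal ones. The changes of 1.10 ± 0.51 in Matrigel (limma, adjusted p = 0.0911) and 1.08 ± 0.51 in collagen I (limma, adjusted p = 0.232) did not pass, while the average over the gels, 1.09 ± 0.36, did (limma, adjusted p = 0.0268). That average was 0.97 under quantile normalization (limma, adjusted p = 0.0515) and 0.90 in the authors' values (limma, adjusted p = 0.0673). It also missed the threshold without tumor Matrigel array B, normal collagen I array A or B, or normal Matrigel array D, at an adjusted p of 0.0518 to 0.0654 in limma. Without tumor collagen I array C, whose spread enters the shared error, the Matrigel change of 1.10 had an adjusted p of 0.00738 in limma.

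The dimmer Jag1 probe moved like the brighter one. Its levels were -4.94, -4.88 and -2.89 in tumor collagen I, -4.91, -4.73 and -4.81 in tumor Matrigel, -6.01, -5.95 and -5.32 in normal collagen I and -5.70, -5.60 and -6.35 in normal Matrigel. It was well above background on 2 of 3 arrays in each normal group and on all tumor arrays. It was thus used only through tumor arrays, and the size of its changes is not firm. Mouse C in collagen I again stood highest, and the change averaged over the gels was 1.29 ± 0.33 (limma over 26606 probes, adjusted p = 0.00843). Within a gel its changes did not pass. They were 1.07 ± 0.47 in Matrigel (adjusted p = 0.0790 in the same limma fit) and 1.52 ± 0.47 in collagen I (adjusted p = 0.0792).

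**Figure D2:**
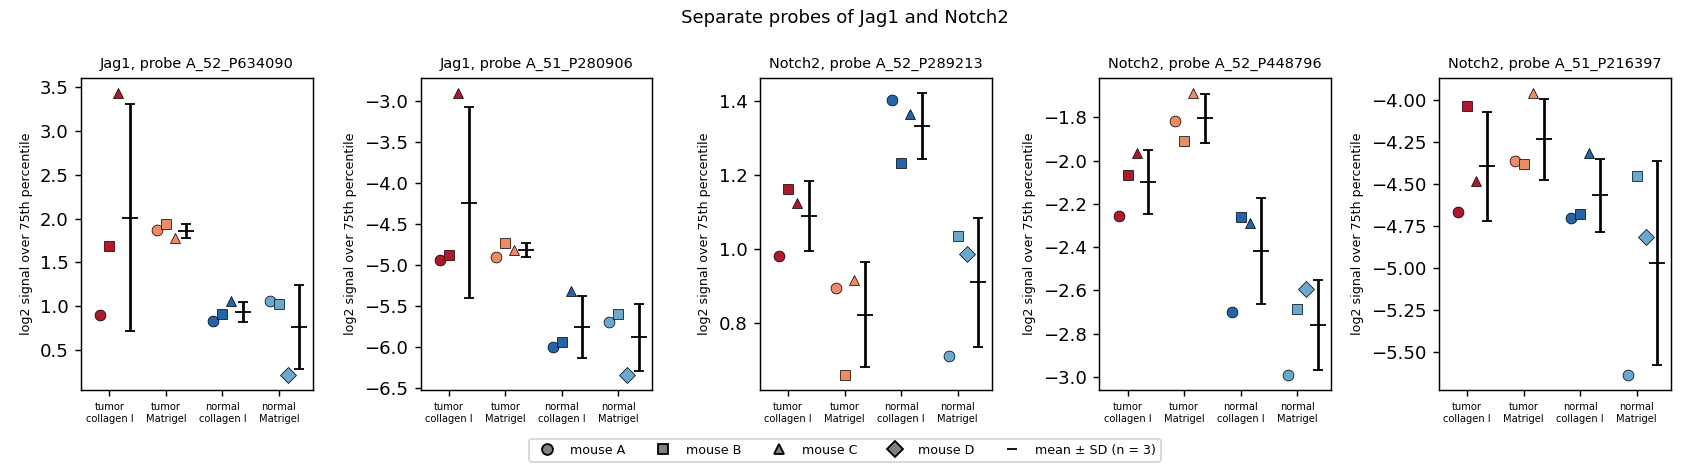
Levels of the separate probes of Jag1 (2 panels) and Notch2 (3 panels) on the 12 arrays (log2 signal over the 75th percentile, vertical axis), grouped on the horizontal axis, with mean ± SD of 3 arrays in black. Both Jag1 probes put tumor collagen I mouse C highest, while the second Notch2 probe separates tumor from normal Matrigel arrays and the brightest one does not.

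Of the target genes, Hey1 passed in the average over the gels and Hes1 in no comparison. Hey1, a repressor of the Hey family, had levels of 5.14, 4.90 and 4.56 in tumor Matrigel, against 5.69, 5.26 and 5.39 in normal Matrigel. In collagen I they were 4.99, 4.97 and 3.63 in tumor organoids and 5.46, 5.24 and 5.38 in normal organoids. Every tumor array lay below every normal array in the same gel, and tumor collagen I mouse C, which had the highest Jag1, had the lowest Hey1. The changes of -0.58 ± 0.33 in Matrigel (limma, adjusted p = 0.166) and -0.83 ± 0.33 in collagen I (limma, adjusted p = 0.159) did not pass, and their average of -0.70 ± 0.23 did (limma, adjusted p = 0.0281). The average missed the threshold without tumor Matrigel array C, normal collagen I array A or C, or normal Matrigel array A, at an adjusted p of 0.054 to 0.06 in limma. Under quantile normalization the Matrigel change of Hey1 was -1.20 and passed (limma, adjusted p = 0.00901). It also passed in the authors' values (-1.17, limma, adjusted p = 0.0116) and with normexp background correction (-0.93, limma, adjusted p = 0.042). In 21 of 25 alternatives it did not pass.

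Hes1, a repressor of the Hes family, had levels of -0.69, -0.40 and 0.08 in tumor collagen I, against 0.51, 0.40 and -0.03 in tumor Matrigel. Mice A and B were lower in collagen I, by changes of -1.20 and -0.81, and mouse C differed by 0.11. In normal organoids the levels were 0.02, 0.09 and -0.20 in collagen I, against -0.31, -0.16 and 0.03 in Matrigel. The change was -0.63 ± 0.23 in tumor organoids (limma, adjusted p = 0.0605) and 0.11 ± 0.23 in normal organoids (limma, adjusted p = 0.943). With the mouse as a random block the tumor change of Hes1 passed (limma, adjusted p = 0.0436), and with the mouse as a fixed block it did not (limma, adjusted p = 0.149). It also passed without array C of tumor collagen I (-0.84, limma, adjusted p = 0.0247) or of tumor Matrigel (-0.79, limma, adjusted p = 0.0358). Between the tissues Hes1 changed by 0.44 ± 0.23 in Matrigel (limma, adjusted p = 0.127) and -0.31 ± 0.23 in collagen I (limma, adjusted p = 0.467).

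**Figure D3:**
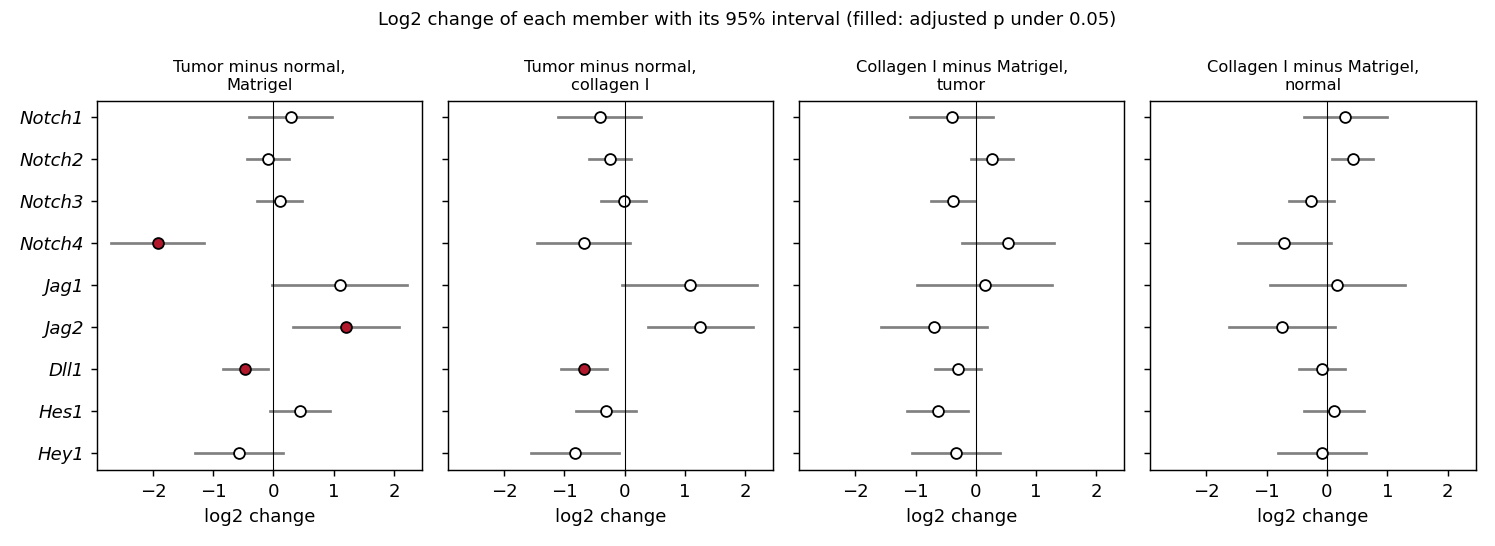
Log2 change of each of the 9 genes (horizontal axis) with its 95% interval (grey line) in tumor minus normal organoids within Matrigel and within collagen I, and in collagen I minus Matrigel within tumor and within normal organoids; filled points passed an adjusted p of 0.05. Notch4 (-1.92), Jag2 (1.20) and Dll1 (-0.46) are filled in Matrigel and Dll1 (-0.68) in collagen I, and no gel change is filled.

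Of the 9 genes, 3 passed between the tissues in Matrigel, 1 higher and 2 lower in tumor organoids, where 51.6% of all genes tested passed. In collagen I 1 of 9 passed, lower, against 8.64% of all genes, 3.64% higher and 5% lower. Averaged over the gels 5 of 9 passed, 2 higher and 3 lower, against 50.3% of all genes, 25.5% higher and 24.8% lower. The count in Matrigel is thus below the share of all genes, and that in the average is near it. None passed between the gels in tumor organoids, where 27.8% of all genes did, and 2 had an unadjusted p under 0.05, Hes1 and Notch3. None passed between the gels in normal organoids, where 0.0438% of all genes did, and 1 had an unadjusted p under 0.05, Notch2. None passed for the difference of gel effects between tissues, where 2.63% of all genes did, and 2 had an unadjusted p under 0.05, Notch4 and Hes1. The comparisons share arrays and are not independent. The median change of the 9 was 0.10 in Matrigel and -0.31 in collagen I between the tissues, beside 0.08 and 0.05 for all genes, and -0.34 in tumor and -0.08 in normal organoids between the gels, beside -0.04 and -0.01.

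A further 70 genes of the pathway were listed, of which 67 were on the array and 59 were tested. Between the tissues in Matrigel 13 were higher and 15 lower in tumor organoids, beside 25.7% higher and 25.9% lower of all genes. Their median change was -0.02. In collagen I 2 were higher and 8 lower, beside 3.64% higher and 5% lower of all genes, with a median of 0.02. Some of those lower, such as Dlk1, passed the filter on dim probes only through normal arrays. Where all 12 arrays had to be well above background, 53 genes were tested, with 2 higher and 5 lower in collagen I. In Matrigel 13 were then higher and 12 lower. With slide as a fixed block 2 genes passed in collagen I, with normexp background correction 6, and without any 1 of the 3 normal collagen I arrays 6. Of the 28 that passed in Matrigel, 14 still passed with normexp background correction and 22 under quantile normalization. In the authors' values 21 did, as did 21 without tumor Matrigel array B or without normal Matrigel array D. The larger changes were decreases of ligands, of a glycosyltransferase, of target genes and of the negative regulator Egfl7.

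Among the other ligands, Dll4, the Delta ligand of sprouting vessels, had mean levels of -4.15 ± 0.35 in tumor Matrigel and -1.31 ± 0.16 in normal Matrigel (SD, n = 3 each). Its change was -2.84 ± 0.30 in Matrigel (limma, adjusted p = 8.8e-05) and -2.82 ± 0.30 in collagen I (limma, adjusted p = 0.000217). Dlk1, a noncanonical ligand, was not well above background on any tumor array and was at least 9.35-fold lower in tumor Matrigel than in normal Matrigel and at least 1.69-fold lower in tumor than in normal collagen I. In these bounds the mean of the normal arrays is set against the lowest signal that counted as well above background on the tumor arrays. With normexp background correction the Dlk1 change was -0.48 in Matrigel (limma, adjusted p = 0.342), and in collagen I it turned sign, to 0.21 (limma, adjusted p = 0.788).

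Of 5 glycosyltransferases, which modify the receptors' outer parts, Mfng was lower in both gels, at -5.58 ± 0.51 in tumor Matrigel against -1.49 ± 0.43 in normal Matrigel and at -6.70 ± 0.70 in tumor collagen I against -1.57 ± 0.53 in normal collagen I (SD, n = 3 each). It was well above background on only 1 of 3 tumor arrays in each gel, so the tumor means are not firm levels. With the dim tumor arrays set to their lowest signal well above background, Mfng was at least 12.9-fold lower in tumor Matrigel and at least 18.9-fold lower in tumor collagen I. Poglut1 changed by -0.57 ± 0.19 in Matrigel, while Lfng, Rfng and Pofut1 did not pass in either gel.

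The target genes split. Heyl, Hey2 and Id4 were lower in tumor organoids in both gels, and Ccnd1, Hes6 and Myc were higher in Matrigel. Heyl had mean levels of -5.44 ± 0.59 in tumor Matrigel, with 1 of 3 arrays well above background, and -1.59 ± 0.89 in normal Matrigel (SD, n = 3 each). By the same bound Heyl was at least 11.3-fold lower in tumor Matrigel, and in collagen I, where all arrays were well above background, its change was -3.68 ± 0.42 (limma, adjusted p = 0.000336). Hey2 changed by -3.54 ± 0.37 and -2.95 ± 0.37 in Matrigel and collagen I. Ccnd1, which encodes cyclin D1, had mean levels of 4.60 ± 0.28 in tumor Matrigel and 2.96 ± 0.52 in normal Matrigel (SD, n = 3 each), a change of 1.65 ± 0.31 (limma, adjusted p = 0.00173). Of the negative regulators, Egfl7, a secreted protein of endothelium, changed by -2.57 ± 0.25 in Matrigel and -2.63 ± 0.25 in collagen I. Dtx4, a Deltex protein, was higher by 1.65 ± 0.22 and 0.97 ± 0.22. The lower level of Dll4, Mfng, Heyl, Hey2 and Egfl7 went with the lower endothelial and pericyte markers given above, and the part of those cells in it was not tested. Of these, Dll4, Mfng and Heyl had dim probes in tumor Matrigel. Normexp background correction adds an offset of 50 to every signal. With it the Matrigel changes were -0.78 for Dll4 (limma, adjusted p = 0.0775), -0.53 for Mfng (0.325) and -0.59 for Heyl (0.28). Hey2 and Egfl7, like Dll4 well above background on all 12 arrays, changed by -1.13 (limma, adjusted p = 0.0302) and -2.44 (9.97e-05) with it. Notch4, a brighter probe, stood at -1.66 with that correction (limma, adjusted p = 0.00299).

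Of 8 protease genes, 4 were higher and 1 lower in tumor organoids in Matrigel, beside the 25.7% higher and 25.9% lower of all genes. Those higher were Aph1a (1.44), Aph1b (1.02) and Psenen (0.72), which are subunits of gamma-secretase, and Furin (0.57), which cuts the receptor precursor. With the mean of its probes the Aph1b change was -0.04 (limma, adjusted p = 0.872). Adam10, which makes the first cut after ligand binding, changed by -0.55 ± 0.16, and with normexp background correction its sign turned. In collagen I only Adam17 passed among the 8, at 0.74 ± 0.18 (limma, adjusted p = 0.0313). Of the ligand ubiquitin ligases, Mib1 was lower (-0.99) and Mib2 higher (1.10) in tumor organoids in Matrigel.

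In the nuclear complex Rbpj, the DNA-binding partner of the receptors, did not pass in any comparison. Kat2b and Maml2 were lower in tumor Matrigel, by changes of -1.37 and -0.78, and Kat2a and Maml3 higher, by 0.93 and 0.77. Maml3 was well above background on only 2 of 3 normal Matrigel arrays, so the size of its change is not firm. Of the corepressors, Hdac2 (-1.36), Cir1 (-0.92) and Hdac1 (-0.66) were lower and Tle3 (0.61) higher there, and the Hdac2 change turned sign with normexp.

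**Figure D4:**
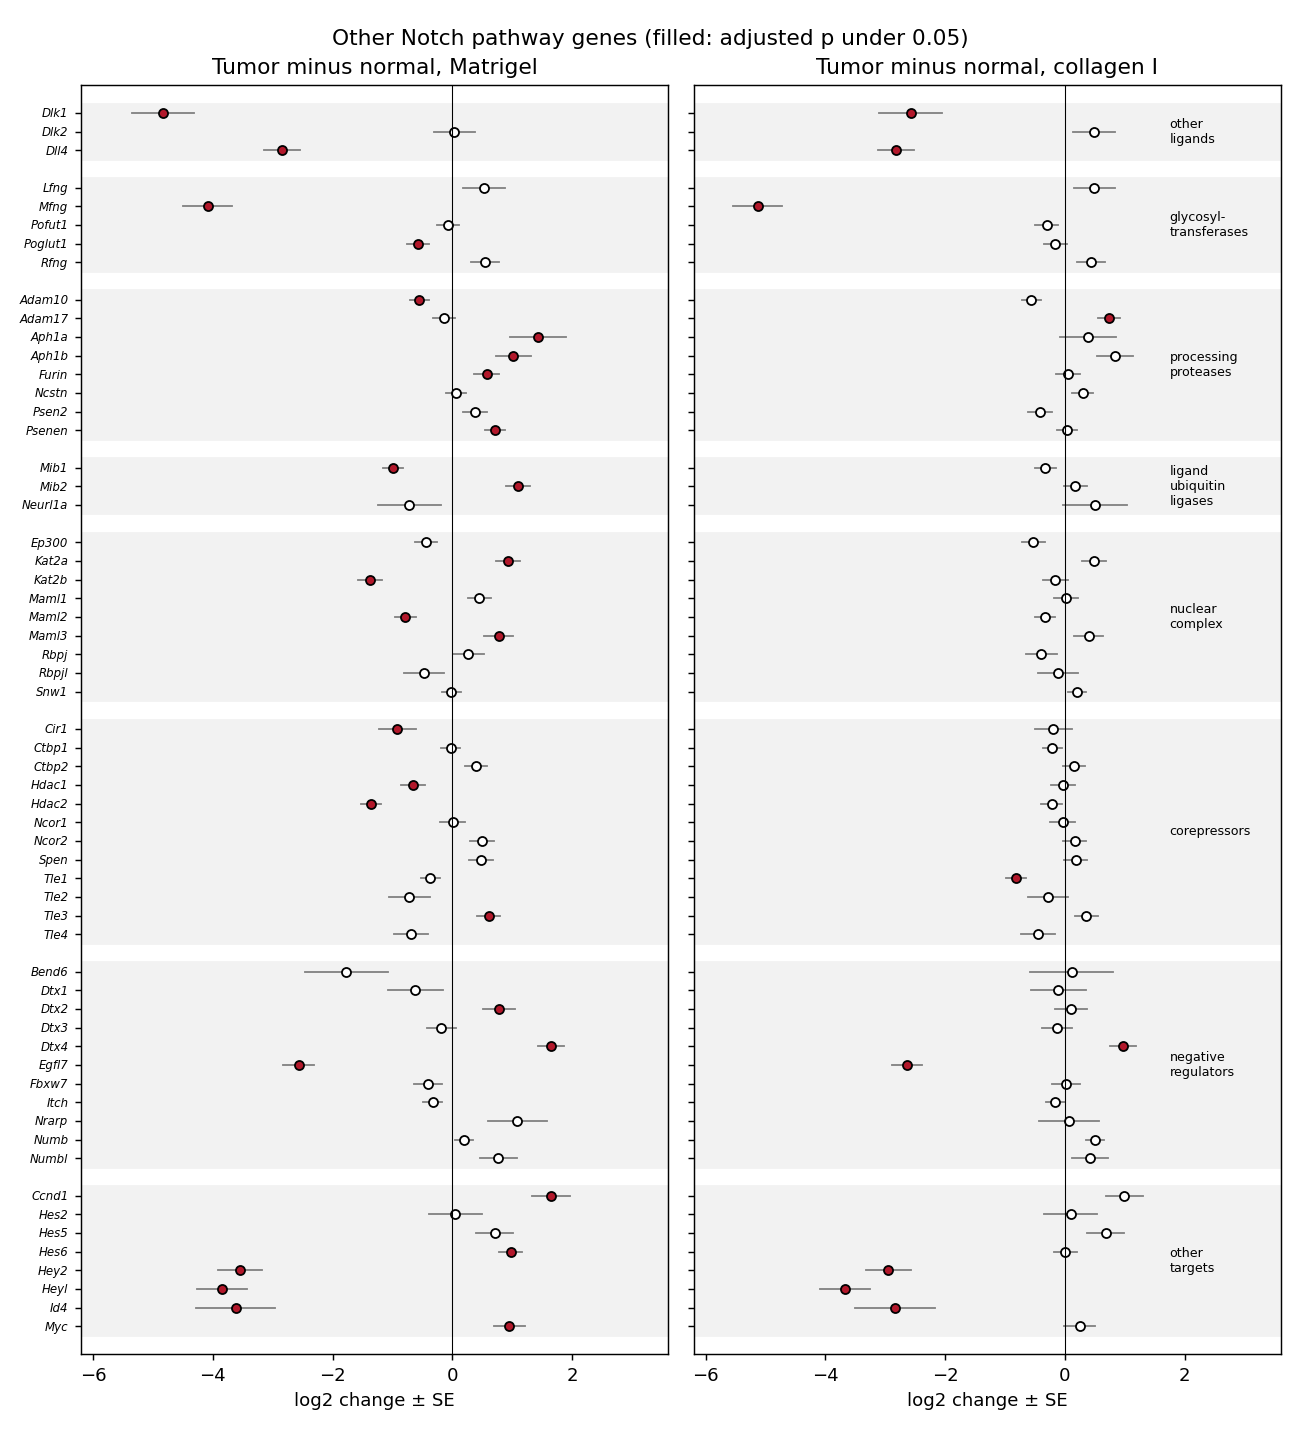
Log2 change ± SE (horizontal axis) of the 59 other Notch pathway genes tested, tumor minus normal organoids in Matrigel (left) and collagen I (right), in 8 groups by role; filled points passed an adjusted p of 0.05. Mfng, Dlk1, Dll4, Heyl, Hey2, Id4 and Egfl7 lie farthest to the left in both gels; for Dlk1 and Mfng in both gels and Heyl in Matrigel, which were not well above background on all tumor arrays, the point is the fitted value and no bound.

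Of the same 59 genes, 7 were higher in tumor organoids in collagen I than in Matrigel and 4 were lower, beside 15.8% higher and 12.1% lower of all genes. The coactivator Kat2b was at -0.71 ± 0.28 in tumor collagen I against -2.07 ± 0.13 in tumor Matrigel (SD, n = 3 each), a change of 1.36 ± 0.21 (limma, adjusted p = 0.00236). The others higher were Cir1, Hdac2, Hdac1, Maml2, Mib1 and Adam17, with changes of 0.57 to 0.92. Those lower were Ccnd1 (-1.14 ± 0.31), Myc (-0.84 ± 0.26), Mib2 and Psenen. With normexp background correction, under which the median of all genes shifted to -0.32, 2 of these 11 still passed and the signs of Hdac2 and Maml2 turned. The number that passed also fell to 4 with mouse as a fixed replicate block or with array weights, to 3 without the filter on dim probes, to 2 with slide as a fixed block or with only the groups compared, and to 6 in the authors' values. Leaving out 1 array gave 4 without tumor collagen I array A, 3 without tumor Matrigel array B, 6 without array C of either tumor group or normal Matrigel array B, and 7 without normal collagen I array B. In normal organoids none of the 59 passed. Hdac2 alone passed for the difference of gel effects (1.14 ± 0.25, limma, adjusted p = 0.0443). It did not pass in 16 of 25 alternatives, among them quantile normalization (0.87, limma, adjusted p = 0.099) and the authors' values (0.71, limma, adjusted p = 0.201), and turned sign with normexp (-0.13, limma, adjusted p = 0.872).

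The genes whose centred levels over the 12 arrays lay nearest to those of the members that passed were found by the root mean square difference, among 13712 genes. For Notch4 (own SD 0.85) these were Meox1 at 0.31 and Phka1 at 0.33 log2 units. For Jag2 (SD 0.87) they were Arhgef4 at 0.20 and Zfp385a at 0.21. For Dll1 (SD 0.35) they were Gramd4 at 0.11 and Cd164 at 0.15. For Jag1 (SD 0.83) they were Wnt11 at 0.26 and Tnnt2 at 0.31, and for Hey1 (SD 0.54) Eps8 at 0.19 and Spa17 at 0.20.

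Promoter sequences of RefSeq (GRCm38.p6, from 250 bases before to 50 after the start) were matched for 7 of the 9 genes, in 8 windows, but not for Hes1 and Hey1. Both strands were searched for the core of the RBPJ site, GTGGGAA, the E box CACGTG and the N box CACNAG, a target of Hes repressors; the letters of the 3 motifs can overlap. None of the 8 windows held the RBPJ core, which 6.38% of 32851 promoters of this length held, or the E box, which 7.15% held. The N box, held by 42.5%, was found 3 times in Notch1, 2 times in Notch3, and once each in Notch2 and in 1 of 2 Dll1 windows. In Notch1 the matches beginning at -3 (CACTAG) and -1 (CTAGTG) overlap across the start and are the 2 strands of 1 site. The 250 bases before the start are shown for Notch4 and Jag2, whose levels differed between the tissues in opposite directions, and neither holds a match.
Notch4, chr17:34564045-34564294, plus strand: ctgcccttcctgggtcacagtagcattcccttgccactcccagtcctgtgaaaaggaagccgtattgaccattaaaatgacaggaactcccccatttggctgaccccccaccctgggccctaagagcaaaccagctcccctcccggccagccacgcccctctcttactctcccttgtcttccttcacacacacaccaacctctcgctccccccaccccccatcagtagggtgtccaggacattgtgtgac
Jag2, chr12:112929496-112929745, minus strand: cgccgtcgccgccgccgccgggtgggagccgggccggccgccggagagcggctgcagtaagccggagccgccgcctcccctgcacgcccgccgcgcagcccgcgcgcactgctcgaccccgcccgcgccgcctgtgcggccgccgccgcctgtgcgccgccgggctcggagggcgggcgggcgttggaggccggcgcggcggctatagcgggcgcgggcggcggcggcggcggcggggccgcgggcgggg
The windows differ in base composition, with 58.3% G or C for Notch4 and 86.0% for Jag2 over their 300 bases.

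A first batch of arrays had measured normal Matrigel organoids of mice A and B as well. Its levels minus those used here were -0.94 and -1.12 for Hes1, 0.96 and 0.95 for Notch1, 0.99 and 0.66 for Notch2, and -1.27 and -0.31 for Jag2, for mice A and B. For Notch3 they were 0.51 and 0.34, for Notch4 0.44 and 0.16, and for Dll1 0.45 and 0.07. For Jag1 they were 0.30 and 0.59, and for Hey1 -0.55 and 0.03. In at least 1 mouse the difference between batches was thus as large as changes between groups for Hes1, Notch1, Notch2, Notch3 and Jag2, and close to them for Dll1 and Hey1 in Matrigel. No array of the first batch entered the main fit. With the mean of both batches as an alternative, Hes1 passed between the tissues in Matrigel (0.78, limma, adjusted p = 0.0288). Jag2 then passed in collagen I (1.25, limma, adjusted p = 0.0372). Notch2, read by its brightest probe, passed in the average over the gels (-0.30, limma, adjusted p = 0.0385). In the main fit its second probe went the other way in that average, by 0.64 ± 0.13 (limma over 26606 probes, adjusted p = 0.00247). There the dimmest probe gave 0.46 ± 0.21 (adjusted p = 0.091) and the brightest -0.17 ± 0.11 (adjusted p = 0.235). The decrease is thus not given as that of the gene.

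Slide 3 held 1 array of each tissue in Matrigel and slide 5 in collagen I. Within slide 3, tumor minus normal was -1.86 for Notch4, 1.94 for Jag2, 1.73 for Jag1, -0.55 for Dll1 and -0.49 for Hey1. Within slide 5 it was -0.25 for Notch4, 1.64 for Jag2, 2.53 for Jag1, -0.57 for Dll1 and -1.60 for Hey1. The sign within each slide was that of the group change for these 5 genes. These differences reuse arrays of the comparisons, and where the groups did not overlap the sign could not differ, so they are no separate check. With slide as a fixed block in the fit, the averages over the gels missed the threshold for Notch4 (-0.92, limma, adjusted p = 0.0898), Dll1 (-0.58, limma, adjusted p = 0.059) and Hey1 (-0.94, limma, adjusted p = 0.0805), as did Dll1 in Matrigel (limma, adjusted p = 0.13) and in collagen I (limma, adjusted p = 0.182). Between the gels, slide 8 held both gels of tumor organoids, and collagen I minus Matrigel there was -0.67 for Hes1, -0.32 for Notch3, -1.56 for Jag2 and 0.04 for Notch4. Slides 3 and 6 held both gels of normal organoids and gave -0.14 and -0.65 for Jag2, -1.53 and -0.30 for Notch4, and 0.42 and 0.33 for Notch2.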

How the data were processed

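RNA was amplified, labelled with Cy3 and read on 1-colour Agilent arrays, per the labels' protocols. The deposited intensity is Agilent's processed signal (Feature Extraction 9.5.1.1 per the file headers, 9.1 per the submitters' processing notes). The authors' deposited log2 values served as an alternative, and how they were centred is unknown. The 13 samples have 14 arrays, since normal Matrigel mouse B was run in both batches, per the labels. The 12 arrays of batch 2 were compared.

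Control and outlier-flagged spots were left out. The log2 intensity at the 75th percentile of an array was subtracted, and averaging spots gave 41174 probes. Of these, 26606 were used, which had 2 or more values in each group and were well above background on all arrays of 1 group or more. The brightest probe stood for a gene. RefSeq (GRCm38.p6) named 22951 probes (55.7%), and the files named the others. A model of group means was fitted in R 4.3.3 (limma, release 3.58.1), with 8 residual and 2.75 prior degrees of freedom and with Benjamini-Hochberg adjustment over all 18274 genes in each comparison at 0.05. It was tested on simulated data. An exact permutation test of 3 arrays against 3 cannot pass 0.05. The number of arrays limits the precision.

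Letters pair the gels within a tissue, per the labels. Deviations of same-mouse arrays correlated at -0.0583, 0.323 and 0.419 (tumor A, B, C) and 0.240 and -0.243 (normal A, B). The members and lists were chosen with earlier results of these data known. All 9 members are named, and of other pathway genes those called with the largest changes, up to 3 per direction and role, beside a few given as context. One further pathway gene is not reported here and is left out of the list's counts. As alternatives, the arrays were scaled by quantiles, by normexp (offset 50) or as the authors did, and filters, flagged spots, several probes, batches, blocks of mouse or slide, weights and single arrays were varied. Figures were drawn with matplotlib 3.10.9.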

Additional observations from a re-analysis of the deposited data

Results flagged for a closer look

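Notch4 differed between collagen I and Matrigel in opposite directions in the tissues. All 3 tumor mice had the higher level in collagen I (0.27, 0.01 and 1.31 for mice A, B and C), and both normal mice measured in both gels had the lower (-1.25 and -0.25 for A and B). The difference of the gel effects, tumor minus normal, was 1.24 ± 0.49 on the log2 scale and did not pass the test over all genes (limma, adjusted p = 0.147). Tumor mouse B hardly differed between the gels.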

How the results depend on the processing

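Between the tissues in collagen I, 1 gene passed (Dll1), and 0 passed with normexp, without the filter on dim probes, with slide as a fixed block or with only the groups compared, and 2 with batch means. Averaged over the gels 5 passed, and 2 with slide as a fixed block. Between the gels in tumor organoids 0 passed, and 1 (Hes1) with mouse as a random replicate block, the paired fit, or with slide as a random block; the mouse block changed no other count of the 9 genes. With array weights 1 gene passed between the gels in normal organoids (Jag2) and 1 for the difference of gel effects (Hes1). Leaving out 1 array at a time gave 1 to 5 genes in Matrigel, 0 to 2 in collagen I, 3 to 5 in the average over gels and 0 to 1 between the gels in tumor organoids. Notch2 in Matrigel reversed to 0.53 (limma, adjusted p = 0.038) with the mean of its probes, since the dimmer probes moved the other way. For other changes the cause was not tested. Of 220 repeats of called member changes, 182 passed again, 38 no longer passed and none changed sign. With normexp the median change of all genes in Matrigel was 0.45, and 77.1% of calls were higher in tumor organoids, against 49.8%. The tumor Matrigel arrays had 56.6 to 58.6% of spots well above background, against 62.1 to 71.4% on the others, which limits dim probes.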
